A study of Rattus norvegicus with 16 samples.

Results

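The 8 genes Col4a1, Col4a2, Col15a1, Col18a1, Lamb1, Lamb2, Lamc1 and Nid1 (also listed as Nid), which encode collagens, laminins and the nidogen of the basement membrane, were followed in rat left ventricle. Every probe set that the platform annotation pairs with 1 of these symbols was taken, called or not. All 8 genes were on the array, with 12 of the 15866 probe sets tested. These 12 stood for 8 of the 10411 genes that could be named. Col4a1, Col18a1, Lamc1 and Nid1 had 2 probe sets each, and the other members had 1 each.

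Left ventricles gave the RNA, which was run on Affymetrix Rat 230A arrays, with 4 biological replicates in each of 4 groups. By the methods of the study, the rats were males bought at 12 to 14 weeks of age. Acclimatization and exposure came after that, so the rats were older at sampling. SH-DE were spontaneously hypertensive rats that inhaled diesel exhaust (DE) at 2 mg/m3, and SH-air were the same strain kept in air. WKY-DE were Wistar Kyoto rats that inhaled DE at 2 mg/m3, and WKY-air were Wistar Kyoto rats kept in air. SH rats are an inbred strain that develops high blood pressure, and WKY rats are the strain with normal blood pressure set against it. Exposure was whole body, 5 days a week for 4 weeks. The sample records give 6 hr a day, whereas the methods of the study give a shorter daily exposure.

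Basement membranes are thin sheets of matrix that wrap each cardiomyocyte and underlie the endothelium of the myocardial capillaries. Their framework is a polymer of laminin trimers, which binds receptors of the cell surface, and a network of type IV collagen, and nidogen is known as a bridge between both. Type XV and type XVIII collagen carry sugar chains and lie at the outer face of the sheet, where it meets the interstitial matrix. Collagen IV, laminin and nidogen are made by several cell types of the heart, among them endothelium, pericytes, fibroblasts and muscle.

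Each value is a MAS5 signal, the summary brightness of the probes of a probe set in arbitrary units, on arrays that were all scaled to a trimmed mean of 500. Levels are compared between groups for the same probe set and never between probe sets. Array medians were 209 to 216 in WKY-DE, against 173 to 197 on the other 12 arrays. Ventricular markers were bright on every array, but the atrial light chain Myl7 also gave 94.2 to 7876 in SH-DE, 33.4 to 154 in SH-air, 404 to 9630 in WKY-DE and 4415 to 25950 in WKY-air. Summed over 4 atrial markers, SH-DE arrays had 12680 to 33230, SH-air arrays 11860 to 23520, WKY-DE arrays 11550 to 41720 and WKY-air arrays 31840 to 94240. Most of each sum was Nppa, which alone gave 11630 to 23100 in SH-air and 16400 to 50800 in WKY-air. A model with the mean log2 value of the 4 atrial markers, not their sum, as a covariate was therefore run beside each comparison. The ratio of 3' to 5' actin signal, a measure of RNA integrity, was 1.3 to 1.77 in SH-DE, 1.37 to 1.64 in SH-air, 1.37 to 1.61 in WKY-DE and 1.37 to 1.61 in WKY-air. In bulk tissue, fewer cells of a type and less RNA per cell cannot be told apart.

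Group means of log2 values were compared in 1 limma model of all 16 arrays, with Benjamini-Hochberg adjustment over 15866 probe sets. Calls needed a p under 0.05 after this adjustment and under 0.01 before it. The p-values rest on the spread between arrays within groups, pooled over the 4 groups and moderated by limma. Single arrays are named by group and replicate, such as SH-DE 2.

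Col15a1, the chain of type XV collagen, was lower in SH than in WKY hearts in air and in DE alike, and it was the 1 member called in any comparison. Its signal in SH-air was 1270, 1410, 1030 and 1320, against 1930, 1990, 1880 and 2100 in WKY-air. Its signal in SH-DE was 1300, 1110, 1340 and 1140, against 2310, 1770, 1810 and 2020 in WKY-DE. All 8 SH arrays lay below all 8 WKY arrays, with no overlap. Of all probe sets, 5.66% were lower without overlap in SH-air against WKY-air and 5.71% in SH-DE against WKY-DE. Col15a1 had 1 probe set, whose sequences were not compared with the transcripts of either strain.

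**Figure D1:**
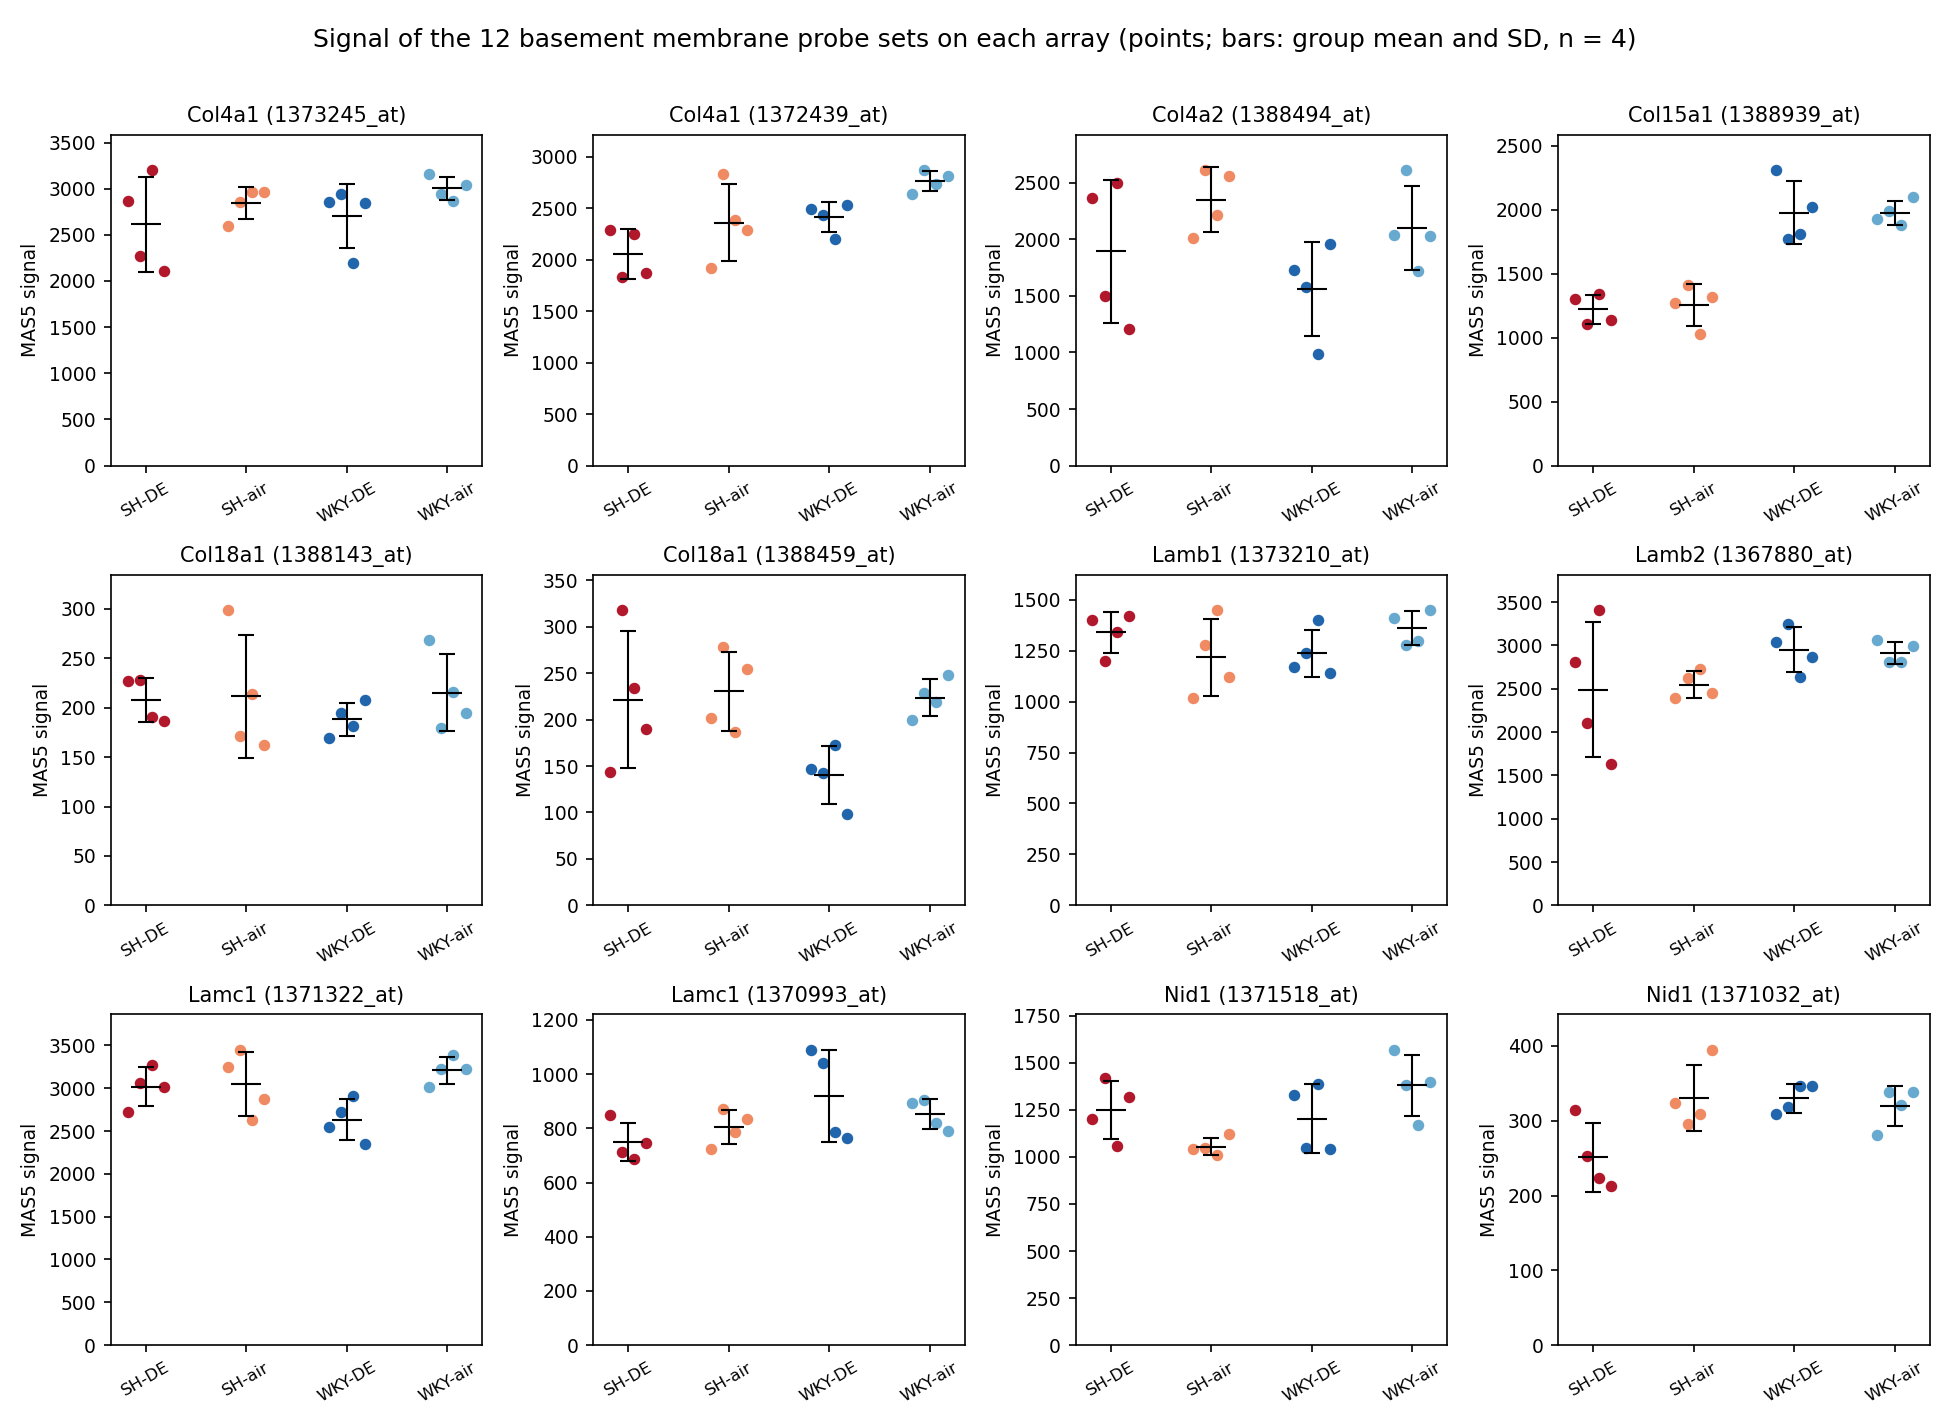
MAS5 signal (vertical axes, arbitrary units, from 0) of the 12 probe sets of the 8 genes, with 1 point per array and the group mean and SD (n = 4) as bars. Col15a1 is the panel in which SH-DE and SH-air lie wholly below WKY-DE and WKY-air (means of 1222 and 1260, against 1978 and 1977).

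Col15a1 averaged 1260 ± 166 in SH-air and 1977 ± 93.9 in WKY-air (SD, n = 4 each), so that SH-air stood at 63.7% of WKY-air. The log2 fold change was -0.65 with a standard error of 0.13 (limma, adjusted p = 0.0137). Under DE, Col15a1 averaged 1222 ± 112 in SH-DE and 1978 ± 251 in WKY-DE (SD, n = 4 each). That log2 fold change was -0.68 with a standard error of 0.13 (limma, adjusted p = 0.0174). The arrays of these 2 comparisons are separate, apart from the shared estimate of the spread.

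In SH-DE against WKY-DE the call of Col15a1 was lost without SH-DE 2 (log2 fold change -0.64, adjusted p = 0.0746), SH-DE 4 (-0.65, 0.0564), WKY-DE 1 (-0.61, 0.0741) or WKY-DE 4 (-0.67, 0.061). In SH-air against WKY-air the call was kept without any 1 array. A fit of the compared groups alone ended both calls (adjusted p = 0.0656 for SH-air against WKY-air and 0.111 for SH-DE against WKY-DE). With the atrial markers as a covariate, the log2 fold change of Col15a1 was -0.62 in SH-air against WKY-air (adjusted p = 0.644, not called). In SH-DE against WKY-DE it was -0.68 (adjusted p = 0.0356, called). This covariate left 12 calls over the whole array in air, against 499, and 98 in DE, against 129. The atrial markers had a median log2 fold change of -4.9 in SH-air against WKY-air. Strain and atrial signal thus cannot be told apart in air, and the lost call does not show which of these Col15a1 followed.

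Col15a1 was not called between DE and air in either strain. The log2 fold change was -0.01 (95% interval -0.28 to 0.26, limma adjusted p = 0.986) in WKY-DE against WKY-air and -0.04 (-0.31 to 0.23, adjusted p = 0.989) in SH-DE against SH-air. The interaction of strain and exposure was -0.03 with a standard error of 0.18 (adjusted p = 0.964). SH-DE also stood below WKY-air, by a log2 fold change of -0.69 (adjusted p = 0.0133). That last call was lost without SH-DE 2 (adjusted p = 0.0535) and with the atrial covariate (log2 fold change -0.67, adjusted p = 0.209). With the covariate 15 probe sets of the whole array were called there, against 308 without it. The call rests on the same WKY-air arrays as SH-air against WKY-air.

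Fibroblast, endothelial and mural cell markers were set beside Col15a1. The summed signal of 10 fibroblast markers was 16850 to 17460 in SH-DE, 13180 to 15940 in SH-air, 15540 to 21000 in WKY-DE and 21320 to 24550 in WKY-air. Of these 10 markers, 4 were called lower in SH-air than in WKY-air (Pdgfra, Dcn, Lum and Mfap5), against 1.79% of all probe sets. With the atrial covariate only 2 probe sets of the whole array were called lower there, against 284, so not all 4 calls were kept. The alternatives were not counted for this list. In SH-DE against WKY-DE limma called 0, against 0.813% of all, with 1 at an unadjusted p under 0.05, against 13.3% of all. The median log2 fold change of the fibroblast list was -0.62 in SH-air against WKY-air and -0.06 in SH-DE against WKY-DE.

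The fibroblast sums of SH-DE and WKY-DE overlapped. Every WKY-DE array had a fibroblast sum below every WKY-air array. Col15a1 in WKY-DE overlapped WKY-air and lay above all SH-DE arrays. Dcn alone gave 8535 to 9477 in SH-DE, so the sum rests largely on 1 marker. The 10 endothelial markers summed to 7850 to 10320 in SH-DE, 9159 to 9606 in SH-air, 9542 to 10820 in WKY-DE and 9810 to 11890 in WKY-air. In SH-air against WKY-air limma called 0 (median log2 fold change -0.29), and 4 had an unadjusted p under 0.05, against 17.5% of all probe sets. In SH-DE against WKY-DE limma called 0 (median -0.15), and 3 had an unadjusted p under 0.05, against 13.3% of all. Of the 10 endothelial fold changes, 6 were below 0 and 4 above 0 in SH-air against WKY-air. In SH-DE against WKY-DE 8 were below 0 and 2 above 0. One of these markers, Vwf, the von Willebrand factor of endothelium, was chosen after its values were seen because it ran beside Col15a1 in both exposures. Its signal was 448 to 815 in SH-DE and 556 to 772 in SH-air, against 952 to 1205 in WKY-DE and 816 to 1198 in WKY-air. All 8 SH arrays were thus below all 8 WKY arrays, narrowly so between SH-DE (815) and WKY-air (816). Of all probe sets, 5.66% were lower without overlap in SH-air against WKY-air and 5.71% in SH-DE against WKY-DE. Vwf did not pass the test, with a log2 fold change of -0.62 (limma, adjusted p = 0.0822) in SH-air against WKY-air and -0.80 (adjusted p = 0.0587) in SH-DE against WKY-DE. The 9 smooth muscle and pericyte markers summed to 6226 to 7471 in SH-DE, 6145 to 7646 in SH-air, 6145 to 7246 in WKY-DE and 6303 to 7134 in WKY-air. Of these 9, limma called 0 in SH-air against WKY-air, and 2 had an unadjusted p under 0.05, against 17.5% of all probe sets. The part of these cell types in the Col15a1 result was not tested.

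**Figure D2:**
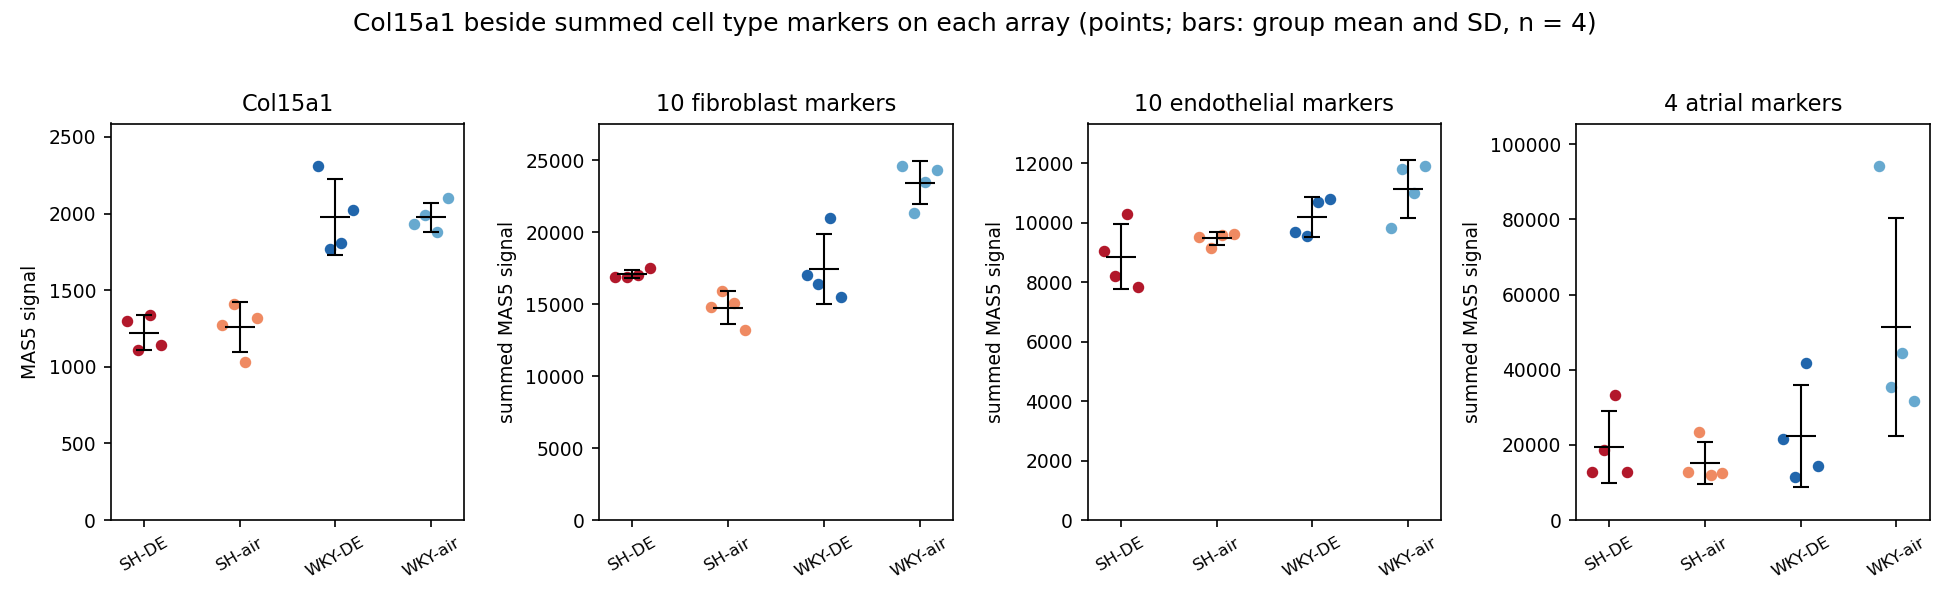
MAS5 signal of Col15a1 and summed MAS5 signal of the fibroblast, endothelial and atrial marker lists (vertical axes, arbitrary units, from 0) on each array, with group mean and SD (n = 4) as bars. In WKY-DE the fibroblast sum (15540 to 21000) lies below WKY-air (21320 to 24550). Col15a1 averages 1978 in WKY-DE and 1977 in WKY-air.

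Between SH-air and WKY-air, 1 of the 12 probe sets was called, lower, where 3.15% of all probe sets were called in either direction and 1.79% were called lower. The other 11 were not called, and 2 of the 12 had an unadjusted p under 0.05, against 17.5% of all. The log2 fold change was below 0 for 9 of the 12, against 46.8% of all probe sets, with a median of -0.08 over the 12 and 0.02 over all. Without overlap between the groups, 3 of the 12 were lower (Col15a1, 1 probe set of Nid1 and Lamb2), against 5.66% of all probe sets.

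In SH-DE against WKY-DE, 1 of the 12 was called, again Col15a1, where 0.813% of all probe sets were called and 0.353% were called lower. It was also the 1 probe set of 12 that was lower without overlap, against 5.71% of all. Of the 12 fold changes 6 were below 0, against 62.2% of all probe sets, and 3 had an unadjusted p under 0.05, against 13.3% of all. In SH-DE against WKY-air, 1 of the 12 was called lower, against 1.94% called in either direction and 0.889% called lower over the array. There 2 of the 12 were lower without overlap, against 4.73% of all probe sets, and 3 had an unadjusted p under 0.05, against 17.2% of all. All 12 fold changes were below 0, against 47.9% of all, with a median of -0.19 over the 12 and 0.02 over all, and 8 of the 12 were below 0 with the atrial covariate.

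Inhaled DE gave no called member in either strain. In WKY-DE against WKY-air limma called 0 of the 12, against 1.88% of all probe sets, and 2 of the 12 had an unadjusted p under 0.05, against 20.5% of all. Of the 12 fold changes 9 were below 0, against 38.1% of all, and 3 probe sets were lower without overlap, against 4.27% of all. The median was -0.16 over the 12, while the median over all probe sets was 0.10 and became 0.01 after quantile normalization, under which the median of the 12 was -0.13 and 9 were again below 0. The calls over all probe sets that these shares rest on moved with single arrays. In WKY-DE against WKY-air they numbered 298, and 43 without WKY-DE 2, 46 without WKY-air 1 and 79 without WKY-DE 1.

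In SH-DE against SH-air limma called 0 of the 12 and 0% of all probe sets. There 1 of the 12 had an unadjusted p under 0.05, against 6.16% of all, 9 were below 0, against 50.2% of all, and 0 were lower without overlap, against 2.04% of all. For the interaction of strain and exposure limma called 0 of the 12, against 0.0063% of all probe sets, and 2 of the 12 had an unadjusted p under 0.05, against 12.5% of all.

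**Figure D3:**
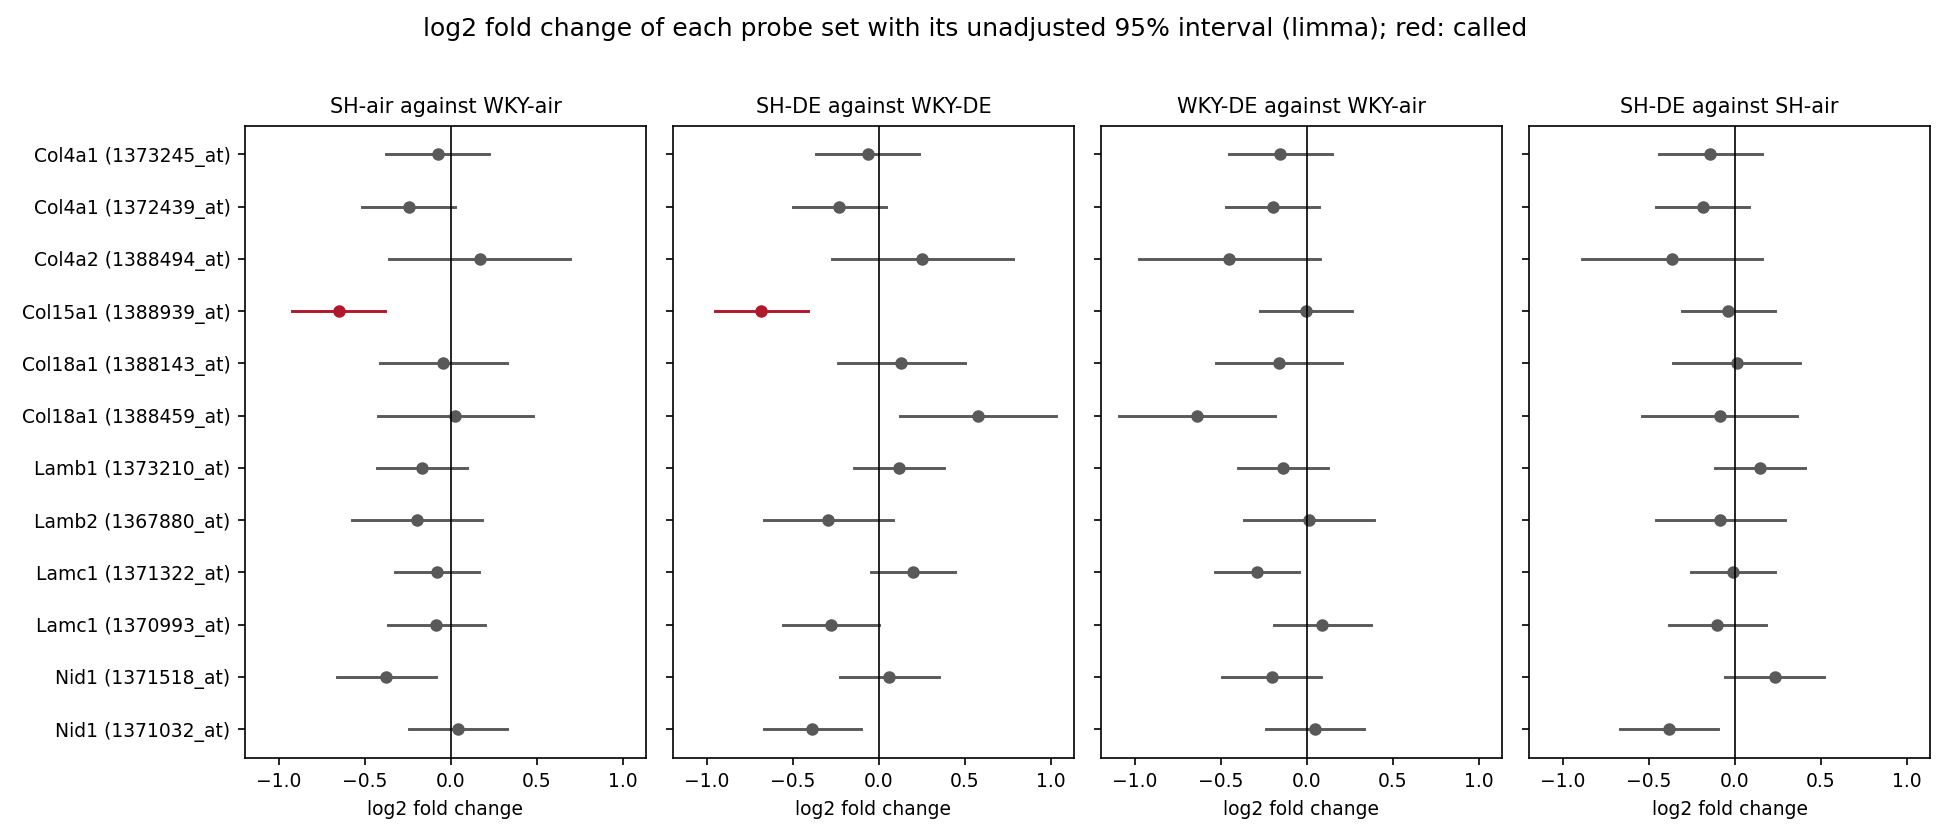
log2 fold change (horizontal axis) of each of the 12 probe sets in 4 comparisons, with its unadjusted 95% interval from limma, and called values in red. Col15a1 is red in both comparisons of SH with WKY (-0.65 and -0.68) and lies at -0.01 and -0.04 in the comparisons of DE with air.

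Col4a1 and Col4a2 encode the α1 and α2 chains that form the common heterotrimer of collagen IV. In the rat genome both genes start within a short stretch of chromosome 16 and run in opposite directions, Col4a1 from chr16:84885597-84996482 on the + strand and Col4a2 from chr16:84749672-84885520 on the - strand (RefSeq, GRCr8). Within groups, Col4a1 had r = 0.88 to Col4a2 and r = 0.89 to Lamb2, a gene of chromosome 8. The 76 bases between the starts of Col4a1 and Col4a2 are shown as a description, and their part in these values was not tested. The same length before the start of Col15a1, the called member, is shown beside it. Capitals mark a GC box, searched for as GGGCGG on both strands, which lies on the - strand and reads CCGCCC here.
Col4a1 and Col4a2, chr16:84885521-84885596, + strand: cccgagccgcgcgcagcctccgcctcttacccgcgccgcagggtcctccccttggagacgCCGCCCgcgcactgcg
Col15a1, chr5:66297470-66297545, + strand: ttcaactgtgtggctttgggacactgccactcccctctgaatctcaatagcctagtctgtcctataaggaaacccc

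The stretch shared by the collagen IV genes was 78.9% G and C, a share reached by 4.91% of the 76-base stretches before the starts of all 33469 genes with a promoter window. The stretch of Col15a1 was 50% G and C, against a median of 53.9%. The GC box was in 18.1% of all such stretches, CCAAT in 13% and TATAAA in 4.61%, each read on both strands. Neither CCAAT nor TATAAA was in either stretch. Start sites within 249 bases of an opposite, head-to-head start were found for 6.81% of all windows. In windows of 300 bases, from 250 before to 50 after the start, the GC box was in 6 of the 7 members matched (all but Col15a1) and in 33.1% of all genes, CCAAT in 3 of 7 and 37.5% of all, and TATAAA in 0 of 7 and 14.2% of all. A match of letters is a description and not a binding site.

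The brighter probe set of Col4a1 did not separate the groups. Its signal was 2870, 2270, 3200 and 2110 in SH-DE, 2600, 2860, 2960 and 2960 in SH-air, 2860, 2940, 2190 and 2840 in WKY-DE, and 3160, 2940, 2870 and 3040 in WKY-air. SH-DE 2, SH-DE 4 and WKY-DE 3 were the 3 lowest of the 16 arrays, and all 4 groups overlapped. The log2 fold changes were -0.08 in SH-air against WKY-air, -0.16 in WKY-DE against WKY-air and -0.14 in SH-DE against SH-air, each with a standard error of 0.14.

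The second probe set of Col4a1 had 2290, 1830, 2250 and 1870 in SH-DE, 1920, 2830, 2390 and 2290 in SH-air, 2490, 2430, 2200 and 2530 in WKY-DE, and 2640, 2870, 2740 and 2810 in WKY-air. Every SH-DE and every WKY-DE array was below every WKY-air array, and in SH-air 1 array (2830) reached into the WKY-air range. The log2 fold change was -0.43 with a standard error of 0.13 in SH-DE against WKY-air (adjusted p = 0.0993). This comparison was called with the dimmest 40% of probe sets left out (adjusted p = 0.046) and with an intensity trend and robust moderation (adjusted p = 0.0353). In WKY-DE against WKY-air the log2 fold change was -0.20 (adjusted p = 0.397).

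Col4a2 had the largest standard error of the 12 probe sets, 0.25 on the log2 scale. Its signal was 2360, 1500, 2500 and 1210 in SH-DE, against 2010, 2610, 2210 and 2560 in SH-air. In WKY-DE it was 1730, 1580, 985 and 1960, against 2040, 2610, 1720 and 2030 in WKY-air. WKY-DE 3 was the lowest of the 16 arrays and SH-DE 4 the next, and both pairs of groups overlapped. The log2 fold change was -0.37 in SH-DE against SH-air (95% interval -0.89 to 0.16, adjusted p = 0.876) and -0.45 in WKY-DE against WKY-air (-0.98 to 0.08, adjusted p = 0.317).

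Laminins are trimers of an α, a β and a γ chain, and Lamb1, Lamb2 and Lamc1 encode β1, β2 and γ1. Lamb2 had 2390, 2620, 2730 and 2450 in SH-air, against 3060, 2810, 2810 and 2990 in WKY-air, without overlap. In SH-DE it was 2810, 2110, 3410 and 1630, against 3040, 3250, 2640 and 2870 in WKY-DE, and here SH-DE 3 was above and SH-DE 4 below every other array. The log2 fold change of Lamb2 was -0.20 in SH-air against WKY-air (standard error 0.18, adjusted p = 0.61) and 0.05 with the atrial covariate, and it was -0.29 in SH-DE against WKY-DE (adjusted p = 0.504).

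Lamb1 was not called in any comparison. It had 1400, 1200, 1340 and 1420 in SH-DE, 1020, 1280, 1450 and 1120 in SH-air, 1170, 1240, 1400 and 1140 in WKY-DE, and 1410, 1280, 1300 and 1450 in WKY-air, with overlap in every comparison. Its log2 fold changes lay between -0.17 (SH-air against WKY-air) and 0.15 (SH-DE against SH-air), each with a standard error of 0.12.

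The γ1 chain gave different answers by probe set. The brighter probe set of Lamc1 had 2550, 2720, 2910 and 2350 in WKY-DE, against 3010, 3220, 3390 and 3220 in WKY-air, without overlap, and a log2 fold change of -0.29 (standard error 0.11, adjusted p = 0.173). The second probe set had 1090, 1040, 785 and 764 in WKY-DE, against 894, 905, 820 and 790 in WKY-air, with overlap and a log2 fold change of 0.09 (adjusted p = 0.733). In SH rats the brighter probe set had 2720, 3060, 3270 and 3020 in SH-DE, against 3250, 3450, 2630 and 2870 in SH-air, and a log2 fold change of -0.01 (adjusted p = 0.997). The second probe set had 688 to 848 in SH-DE, against 724 to 870 in SH-air. Within groups the deviations of both Lamc1 probe sets had r = -0.15 over the 16 arrays.

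Nidogen 1, the bridge between laminin and collagen IV, also depended on the probe set. The brighter Nid1 probe set had 1040, 1050, 1010 and 1120 in SH-air, against 1570, 1380, 1170 and 1400 in WKY-air, with the highest SH-air array below the lowest of WKY-air. SH-air averaged 76.4% of WKY-air, a log2 fold change of -0.38 with a standard error of 0.14 (adjusted p = 0.159), which did not pass. In DE the same probe set had 1200, 1420, 1060 and 1320 in SH-DE, against 1330, 1050, 1390 and 1040 in WKY-DE, with full overlap and a log2 fold change of 0.06 (adjusted p = 0.884).

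The second Nid1 probe set was close in SH-air and WKY-air (log2 fold change 0.04, adjusted p = 0.901). It had 315, 253, 223 and 213 in SH-DE, against 324, 295, 309 and 395 in SH-air, where the highest SH-DE array overlapped SH-air, and a log2 fold change of -0.38 (standard error 0.13, adjusted p = 0.74). For the interaction of strain and exposure both Nid1 probe sets had about the same size and opposite signs, 0.44 and -0.43 (adjusted p = 0.37 and 0.371). Within groups they had r = -0.02 over the 16 arrays.

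Col18a1, the type XVIII collagen whose C-terminal end is cut off as endostatin, had group means of 140 to 230 over both probe sets. The array medians were 173 to 216. One probe set had 147, 142, 173 and 98.1 in WKY-DE, against 199, 229, 219 and 248 in WKY-air, without overlap. WKY-DE averaged 62.6% of WKY-air, a log2 fold change of -0.64 with a standard error of 0.21 (adjusted p = 0.115), which did not pass. In SH rats it had 144, 318, 234 and 190 in SH-DE, against 202, 278, 187 and 254 in SH-air, with overlap and a log2 fold change of -0.09. The other probe set had 169 to 208 in WKY-DE, against 180 to 269 in WKY-air, a log2 fold change of -0.16 (adjusted p = 0.632).

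The probe sets of Col18a1 had r = -0.39 within groups, and those of Col4a1 had r = 0.66. Among the 4 members with a second probe set, Col4a1 was thus the 1 whose probe sets went up and down together from array to array. The cause of the difference between probe sets was not tested, since the probe sequences were not compared with the transcripts of either strain.

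The spread within groups had a pattern of its own. Each array's log2 deviation from its group mean was taken for the brighter probe set of each gene, and the 28 pairs of members were compared over the 16 arrays. Their median r was -0.05, with a range of -0.53 to 0.89, and 10 pairs were above 0. Col4a1, Col4a2 and Lamb2 formed the parallel pairs. Col4a1 had r = 0.88 to Col4a2 (Spearman 0.82) and r = 0.89 to Lamb2 (Spearman 0.89), which were ranks 23 and 11 among 10410 other genes.

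Col15a1 was next, with r = 0.58 to Col4a2. The r of Col4a1 was 0.42 to Col15a1 (rank 1515), -0.003 to Lamb1 (rank 5168), -0.08 to Col18a1 (rank 5967), -0.31 to Lamc1 (rank 8132) and -0.53 to Nid1 (rank 9616). Without WKY-DE 3 and SH-DE 4, the 2 arrays farthest below their group mean for Col4a1, the r of Col4a1 was 0.75 to Col4a2 and 0.91 to Lamb2. Without the 4 SH-DE arrays it was 0.76 to Col4a2 and 0.81 to Lamb2. These arrays share their hybridization and scaling across genes, and 90 of the 10410 other genes (0.865%) had an r of 0.8 or more to Col4a1.

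**Figure D4:**
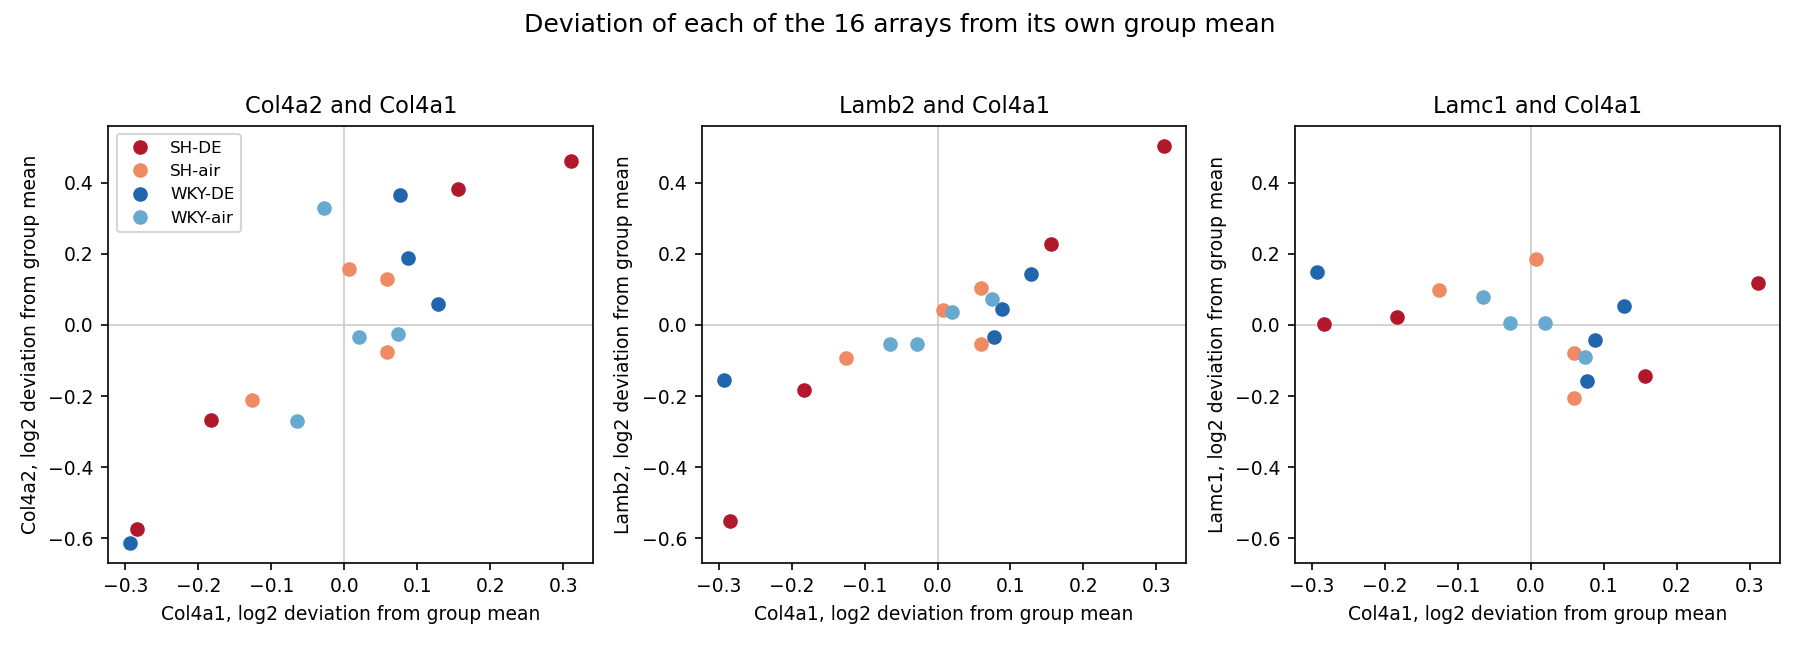
log2 deviation of Col4a2, Lamb2 and Lamc1 (vertical axes) against that of Col4a1 (horizontal axes) from the mean of the array's own group, 1 point per array, 16 arrays. Col4a2 (r = 0.88) and Lamb2 (r = 0.89) go up with Col4a1 and Lamc1 does not (r = -0.31), and the arrays farthest from 0 for Col4a1 are SH-DE 3, SH-DE 4 and WKY-DE 3.

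The most extreme arrays were in the DE groups. In SH-DE replicates 1 to 4 Col4a1 deviated by 0.16, -0.18, 0.31 and -0.28, Col4a2 by 0.38, -0.27, 0.46 and -0.58, and Lamb2 by 0.23, -0.18, 0.50 and -0.55. In WKY-DE replicate 3 Col4a1 deviated by -0.29, Col4a2 by -0.61 and Lamb2 by -0.15. The summed endothelial markers of SH-DE 1 to 4 were 9050, 8200, 10300 and 7850, in the same order as the 3 genes, and the 3' to 5' actin ratios were 1.33, 1.38, 1.77 and 1.3. WKY-DE 3 had an endothelial sum of 10700, within the 9540 to 10800 of the other WKY-DE arrays. The part of these values in the pattern was not tested.

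The 5 genes whose deviations were most like those of Col4a1 were Pip5k1c (r = 0.92), a kinase that makes the lipid PIP2, C20h6orf136 (0.92), Vegfa (0.91), the growth factor of endothelial cells, Fmc1 (0.91), and Ppp6r1 (0.91), a subunit of protein phosphatase 6. For the brighter probe set of Lamc1 they were Dclk2 (0.91), Ptbp3 (0.89), Crot (0.87), Ncoa6 (0.86) and Hdac2 (0.85). The second probe set of Lamc1 had r = -0.15 to the brighter one, so these 5 describe the brighter probe set alone. No other member was near the top for Lamc1, where the highest was Col15a1 at r = 0.18 (rank 3280).

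Of 30 further basement membrane components, 17 were on the array. In SH-air against WKY-air 0 were called higher and 2 lower, with a median log2 fold change of -0.09. Of all probe sets, 3.15% were called there and 1.79% called lower. In WKY-DE against WKY-air limma called 0, against 1.88% of all, with a median of 0.00. There 2 had an unadjusted p under 0.05, against 20.5% of all. Fibulin 1 (Fbln1), a matrix glycoprotein that binds laminin and nidogen, averaged 180 ± 47.9 in SH-air and 336 ± 71.5 in WKY-air, a log2 fold change of -0.86 (adjusted p = 0.0377). Fibulin 2 (Fbln2) averaged 505 ± 15.9 in SH-air and 724 ± 65.1 in WKY-air, a log2 fold change of -0.50 (adjusted p = 0.03). Both calls were lost without any 1 of SH-air 1, 3 or 4 or WKY-air 2, 3 or 4. Of both, 1 was lost without SH-DE 1, SH-DE 2, SH-air 2, WKY-DE 1 or WKY-DE 2. With the atrial covariate 0 were called, but only 12 probe sets of the whole array were then called, against 499 without it.

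Neither the α chains of laminin nor the large proteoglycans were called in these comparisons. Lama2, the α2 chain of muscle laminin, averaged 2384 in SH-air and 2213 in WKY-air, a log2 fold change of 0.10 (adjusted p = 0.841). Lama4, the α4 chain found around vessels, averaged 670 in SH-air and 839 in WKY-air, a log2 fold change of -0.31 (adjusted p = 0.25). Perlecan (Hspg2) averaged 1081 in SH-air and 1165 in WKY-air, a log2 fold change of -0.10 (adjusted p = 0.86). In DE, Sparc, a collagen-binding protein, averaged 7728 ± 437 in WKY-DE and 9987 ± 797 in WKY-air, a log2 fold change of -0.37 (adjusted p = 0.148), and Fbln2 averaged 568 ± 64.5 in WKY-DE and 724 ± 65.1 in WKY-air, a log2 fold change of -0.35 (adjusted p = 0.119).

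Of 21 matrix receptors and proteins of the dystrophin complex, 18 were on the array. In SH-air against WKY-air 0 were called higher and 1 lower, with a median of -0.16. Of all probe sets, 3.15% were called there and 1.79% called lower. In WKY-DE against WKY-air limma called 0, against 1.88% of all, with a median of -0.09. There 5 had an unadjusted p under 0.05, against 20.5% of all. Ddr2, a collagen receptor of fibroblasts, averaged 342 ± 41.6 in SH-air and 496 ± 12.4 in WKY-air, a log2 fold change of -0.52 (adjusted p = 0.0273). Its call was lost without any 1 of SH-air 2, 3 or 4 or WKY-air 1, 2 or 4. With the atrial covariate 0 genes of the list were called, and 12 probe sets of the whole array, against 499 without it. In DE, β-sarcoglycan (Sgcb) averaged 2154 ± 228 in WKY-DE and 1447 ± 313 in WKY-air, a log2 fold change of 0.59 (adjusted p = 0.0577). One gene of the list was called higher without WKY-air 3. The laminin receptor Itga7 averaged 1917 ± 284 in WKY-DE and 2755 ± 545 in WKY-air, a log2 fold change of -0.51 (adjusted p = 0.125).

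Of 19 genes of collagen assembly, 16 were on the array. In SH-air against WKY-air 1 was called higher and 3 lower, with a median of -0.11. Of all probe sets, 1.36% were called higher there and 1.79% lower. Prolyl 3-hydroxylase 3 (P3h3) averaged 128 ± 8.16 in SH-air and 264 ± 62 in WKY-air, a log2 fold change of -0.93 (adjusted p = 0.00745). Its relative P3h1 averaged 103 ± 22.8 in SH-air and 193 ± 58.9 in WKY-air, a log2 fold change of -0.79 (adjusted p = 0.0495). Ppib, the cyclophilin B of the same hydroxylation complex as P3h1, averaged 2228 ± 275 in SH-air and 3085 ± 104 in WKY-air, a log2 fold change of -0.47 (adjusted p = 0.033). Crtap, the third partner, was the 1 called higher, at 47.6 to 132 in SH-air and 10 to 34.3 in WKY-air (adjusted p = 0.0134). Its WKY-air values lie around the 10th percentile of all values, 16.1, so it is not shown to be above background there and no fold is given. Without any 1 of SH-air 1, 2 or 4 or WKY-air 1, 2 or 4, the count was 2 in place of 4. With the atrial covariate the count was 0, where 12 probe sets of the whole array were called, against 499 without it.

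In WKY-DE against WKY-air, 1 gene of collagen assembly was called higher and 1 lower, with a median of -0.05. Of all probe sets, 1.37% were called higher there and 0.511% lower. Of the 16 genes 8 had an unadjusted p under 0.05, against 20.5% of all probe sets. P3h3 averaged 141 ± 18.6 in WKY-DE and 264 ± 62 in WKY-air, a log2 fold change of -0.81 (adjusted p = 0.0301). Crtap had 52.1 to 92.3 in WKY-DE, against the same 10 to 34.3 in WKY-air (adjusted p = 0.0316), again with no fold given. Both comparisons use the same WKY-air arrays. Both calls were lost without any 1 of WKY-DE 2, WKY-DE 4, WKY-air 1 or WKY-air 4. Of both, 1 was lost without WKY-DE 1, WKY-DE 3 or WKY-air 2. With the atrial covariate 0 were called, but only 2 probe sets of the whole array were then called, against 298 without it. In SH-DE against SH-air limma called 0 genes of the 3 lists and 0% of all probe sets. At an unadjusted p under 0.05 were 0 of the further basement membrane components, 1 of the receptors and 2 of the collagen assembly genes, against 6.16% of all.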

How the data were processed

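The authors deposited 1 table of linear intensities for all arrays, which the submitters' processing notes credit to MAS5 (version not given). Without the lowest and highest 2% of its values, every array averaged 500. The RMA values described in the methods of the study were not used here.

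The 57 control probe sets were left out. The other 15866 of 15923 were taken as log2(intensity + 16.1), the offset being the 10th percentile of all values, with no filter and no further normalization. Fold changes are on this scale, which understates the change of dim probe sets. On no array did more than 12.5% of values lie under the offset. One model of 4 group means was fitted to 16 arrays in R 4.3.3 with limma 3.58.1 (12 residual and 2.68 prior degrees of freedom). The number of arrays limits the precision, and the highest correlation between any pair of arrays, 0.9684, gave no sign of a duplicated array.

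Of the probe sets tested, 12783 had 1 gene in the platform annotation, 312 had several and 2771 had none or were not listed. The symbols of 12748 were updated through Entrez identifiers. In lists and correlations, the probe set of highest mean stands for its gene. Start sites and sequences are from RefSeq (GRCr8), whose promoter table held 7 of the 8 members. Lamb2 was not among them.

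The members and the gene lists were chosen with earlier results of these data known. Named are all member probe sets, every list gene called in SH-air against WKY-air or WKY-DE against WKY-air and otherwise up to 2 of lowest p, and the 5 genes most like Col4a1 and Lamc1. Lama2, Lama4 and Hspg2 were added after their values were seen.

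Same-numbered replicates of different groups were compared in 24 pairs, of which 0 had r over 0.1 (-0.096 to 0.053), so replicate numbers were not used to pair arrays. The alternatives were offsets of 1 and 62.5, quantile normalization, leaving out the dimmest 40%, array weights, robust moderation with an intensity trend, a fit of the compared groups alone, a stricter adjusted p of 0.01, a replicate block, an atrial marker covariate, counting genes, leaving out both DE replicates 3 and leaving out each array in turn. The calculations were tested on simulated data.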

Additional observations from a re-analysis of the deposited data

Results flagged for a closer look

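The brighter probe set of Col4a1 had a signal of 2190 in WKY-DE replicate 3, against 2840 to 2940 on the other 3 WKY-DE arrays. The gap to its nearest neighbour was 0.864 of the range of the group, above Dixon's 95% critical value for 4 arrays. It was the 1 such case among 48 groups of arrays examined, where chance would give about 2.4. Col4a2 was also lowest on this array, at 985, against 1580 to 1960 on the other WKY-DE arrays. The cause was not tested.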

How the results depend on the processing

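Over 27 alternatives each, the log2 fold change of Col15a1 was -0.71 to -0.56 in SH-air against WKY-air (adjusted p 0.00185 to 0.644, called in 24), -0.77 to -0.61 in SH-DE against WKY-DE (adjusted p 0.00195 to 0.111, called in 20) and -0.74 to -0.65 in SH-DE against WKY-air (adjusted p 0.00155 to 0.209, called in 23). The count of called members, 1 in each of these comparisons, was 0 in all 3 at an adjusted p under 0.01 and with the compared groups alone. With the atrial covariate it was 0 in SH-air against WKY-air and SH-DE against WKY-air, where 12 and 15 probe sets of the whole array were called, against 499 and 308. In SH-DE against WKY-air it was 2 with the dimmest 40% left out and with an intensity trend, Col4a1 being the addition. Leaving out single arrays gave 1 throughout in SH-air against WKY-air, 0 to 1 in SH-DE against WKY-DE and 0 to 1 in SH-DE against WKY-air.

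With the replicate number as a block, although the numbers did not pair the arrays, the count of called members was 0 in SH-DE against WKY-DE (Col15a1, adjusted p = 0.0541) and stayed at 1 in SH-air against WKY-air and SH-DE against WKY-air. The block moved the calls over all probe sets in these comparisons to 70, 315 and 169, against 129, 499 and 308 without it. The further basement membrane components and the receptors were at 0 in SH-air against WKY-air with the block.

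Of the further basement membrane components 2 were called in SH-air against WKY-air, and 0 at an adjusted p under 0.01, with the groups alone or with the atrial covariate, and 0 to 2 without single arrays. The receptors had 1 call there, against 0 under the same 3 settings, 2 with an offset of 62.5 or array weights, 3 with the dimmest 40% left out or a trend, and 0 to 1 without single arrays. In WKY-DE against WKY-air the receptors had 0, against 1 with an offset of 62.5, the dimmest 40% left out, a trend or array weights, and 0 to 1 without single arrays. Collagen assembly had 4 in SH-air against WKY-air, against 1 at an adjusted p under 0.01, 0 with the groups alone or the atrial covariate, and 2 to 4 without single arrays. In WKY-DE against WKY-air it had 2, against 0 at an adjusted p under 0.01, with the groups alone, the atrial covariate or both DE replicates 3 left out, 1 after quantile normalization, 4 with an offset of 62.5, the dimmest 40% left out or array weights, 5 with a trend, and 0 to 2 without single arrays. Over all probe sets, 298 calls in WKY-DE against WKY-air (81 lower, 217 higher) became 91 (47 lower, 44 higher) after quantile normalization. Without single arrays the calls over all probe sets ranged over 249 to 558 in SH-air against WKY-air, 43 to 304 in WKY-DE against WKY-air, 67 to 212 in SH-DE against WKY-DE and 103 to 508 in SH-DE against WKY-air, the lowest without SH-air 4, WKY-DE 2, WKY-DE 1 and SH-DE 2 and the highest without SH-DE 3 in each.

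Of 72 fold changes of members, 33 lay within 1 SE of 0, of which 25 changed sign under some alternative and 0 were called. Among the other 39, 3 changed sign. Col4a2 in SH-DE against WKY-DE was 0.25, and -0.11 with both DE replicates 3 left out. Lamb2 in SH-air against WKY-air was -0.20, and 0.049 with the atrial covariate. The dimmer probe set of Lamc1 had an interaction of -0.19, and 0.06 with the atrial covariate. The cause was not tested in any of these cases. The number of arrays, 4 a group, limits what could be called.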
